A study of Mus musculus with 9 samples.

Results

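The transforming growth factor beta (TGF-beta) and bone morphogenetic protein (BMP) pathway was followed through 41 of the 37224 genes in a deposited table of mouse RNA sequencing counts. The 41 genes were those of a given list of ligands, latency proteins, secreted antagonists, receptors and Smads, each matched by symbol to its Ensembl entry, by a rule that uses no measured value. The list itself was chosen with earlier results of these data known. Expression was measured in iGABA, GAD67 and MEF cells, with 3 libraries each, all of the C57BL/6 strain. iGABA cells were fibroblasts carried through 14 days in vitro of genetic reprogramming toward GABAergic interneurons, of which the first 2 days were in fibroblast medium and the rest in neuronal medium, and they were sorted for GFP. GAD67 cells were cortical interneurons of stage E18.5, used as primary cells and sorted for GFP, and are named in the sample titles for GAD67, an enzyme of GABA synthesis encoded by Gad1. MEF cells were primary embryonic fibroblasts of stage E13.5 at passage P0, detached with trypsin and not described as sorted, and iGABA cells were made from P0 fibroblasts. The labels also record a later shift of MEF cultures to neuronal inducing medium without saying whether it preceded RNA extraction. The labels name neither the delivered factors, nor the promoter that drove them, nor the GFP reporter of the converted cells. Whether the 3 libraries of a group came from different cultures or litters is not stated, so the p-values may rest on technical spread alone.

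TGF-beta, activin and BMP ligands are secreted dimers that bring together type II and type I receptor kinases, and the type I kinase phosphorylates a receptor Smad that enters the nucleus with Smad4. TGF-beta and activin use mainly Smad2 and Smad3, and BMPs use mainly Smad1 and Smad5. TGF-beta is held latent in the matrix by latent TGF-beta binding proteins, activins are trapped by follistatins, and BMPs are trapped by noggin, chordin and gremlin. In fibroblasts TGF-beta is known for raising matrix and contractile genes, and in the embryonic forebrain BMPs from the dorsal midline are known for opposing ventral identity, from which cortical GABAergic interneurons arise.

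Library totals ran from 27501521 to 38975523 counts. Values are CPM, counts per 1000000 counts of the library after scaling by the trimmed mean of M-values (TMM). Levels of different genes are compared only as CPM per kilobase of counted exon. The markers went with the labels in most genes: 8 of 8 GABAergic interneuron markers and 6 of 7 general neuron markers were higher in iGABA than in MEF, and 9 of 9 fibroblast markers were lower. Stmn2, a neuronal microtubule regulator, went against its list, at 23.3 ± 3.13 CPM in iGABA, 546 ± 22.7 in GAD67 and 33.5 ± 0.758 in MEF (SD, n = 3). The neuron markers summed to 663 to 681 CPM in iGABA, 7118 to 7546 CPM in GAD67 and 105 to 109 CPM in MEF. Dlx5 and Lhx6 of the interneuron markers are known as delivered factors of this study. The summed interneuron markers stood at 677 to 689.8 CPM in iGABA, 4518 to 4741 CPM in GAD67 and 8.49 to 10.1 CPM in MEF. Fibroblast markers summed to 737 to 1030 CPM in iGABA, 133 to 141 CPM in GAD67 and 79040.1 to 87682 CPM in MEF, and no marker of these lists was at 0 in any group. The fibroblast sum is mostly collagens, and 2 surface markers fell far less, Pdgfra to 152 CPM in iGABA against 277 CPM in MEF and Thy1 to 164 CPM in iGABA against 409 CPM in MEF. Of other cell types, the 11 macrophage and microglia markers summed to 0.812 to 0.938 CPM in iGABA, with 2 of them at 0, to 2.47 to 3.02 CPM in GAD67 and to 331 to 355 CPM in MEF. The 6 mural cell markers summed to 43.3 to 55.5 CPM in iGABA, 13.3 to 42.8 CPM in GAD67 and 673 to 718 CPM in MEF, and none was at 0. The 5 oligodendrocyte lineage markers were highest in iGABA as a sum, at 396 to 408 CPM, with 1 of them at 0. They summed to 41.6 to 48.8 CPM in GAD67 and 27.5 to 29.7 CPM in MEF. Singly, 2 of them were higher in iGABA than in MEF, 1 of these by at least 2-fold, 1 was lower and 2 did not pass. Against GAD67, 2 were higher in iGABA, 2 were lower and 1 did not pass. Within iGABA the fibroblast markers summed to 916, 737 and 1030 CPM in replicates 4, 5 and 6, and the macrophage, endothelial, mural, skeletal muscle, cartilage and interneuron sums ran in the same order. So did the levels of 14 of the 41 pathway genes (Tgfb3, Ltbp1, Ltbp2, Ltbp4, Tgfbr2, Inhba, Fst, Acvr1b, Nog, Bmpr1b, Bambi, Smad3, Smad6 and Smad7). The share of all genes in that order was not computed, so this count is no result about the pathway. The part of these cells in the pathway values below was not tested. In such bulk samples, fewer cells of a type and less RNA per cell cannot be told apart.

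Most of the pathway stood below the fibroblast level in iGABA and in GAD67, called the neuronal groups below after their labels, but a small set went the other way in the converted cells. In iGABA cells 34 of the 41 genes fell against MEF, 6 rose (Bmp7, Gdf11, Acvr1b, Acvr2b, Smad5 and Ltbp3) and 1 (Chrd) did not pass. Of the rises, those of Bmp7 (18.01-fold) and Gdf11 (11.02-fold) were the largest. The 3 genes that stood above both other groups were Bmp7, Gdf11 and, by a narrow margin over MEF that was not called in 8 of the alternatives, Ltbp3. They were 7.32% of the 41 genes, against 19.5% of all genes. A larger set of 13 genes, or 31.7% against 15.1% of all genes, stood below both other groups. These were Tgfb3, Tgfbr1, Acvr1, Acvr2a, Bmp1, Bmp2, Nog, Grem1, Bmpr2, Bambi, Smad1, Smad2 and Smad4. The calls of Bmpr2 and Smad2 against MEF did not hold with library size alone. In GAD67 cells 31 genes were lower than in MEF, 5 were higher (Acvr2b, Acvr1b, Smad5, Gdf11 and Smad1) and 5 did not pass (Tgfbr1, Acvr1, Bmpr2, Smad2 and Smad4). Between iGABA and GAD67 the genes split evenly, with 17 higher in iGABA, 16 lower and 8 that did not pass (Tgfb2, Ltbp1, Bmp5, Gdf10, Bmpr1b, Smad3, Smad6 and Smad7). By role, all 5 activin and Gdf11 ligands and activin binders were higher in iGABA than in GAD67. All 4 genes listed as activin receptors and 4 of the 5 signalling Smads were lower in iGABA. Of those receptors, Acvr1 chiefly serves BMP ligands, and the call of Acvr1b was lost with library size alone. All 41 genes passed the low-count filter.

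Calls rested on edgeR's quasi-likelihood test with Benjamini-Hochberg adjustment over 18085 genes, at an adjusted p under 0.05. Since the cell types differed in most genes, the share of all genes called was 81.8% for iGABA against MEF, 86.8% for GAD67 against MEF and 80.4% for iGABA against GAD67, so being called is in itself no result about the pathway. Against MEF, 39.7% of all genes were lower in iGABA and 42.1% higher, and 43.7% were lower in GAD67 and 43.1% higher. At least 4-fold falls were found for 22 of the 41 pathway genes in iGABA against 14% of all genes, and for 25 in GAD67 against 21.1% of all genes. At least 4-fold higher in iGABA than in GAD67 were 12 pathway genes, against 16.2% of all genes, and 3 were at least 4-fold lower, against 9.91%. The median log2 fold change of the 41 genes was -2.17 in iGABA against MEF, where that of all genes was 0.05, and -3.02 in GAD67 against MEF, where that of all genes was 0.00160. Against GAD67 the median in iGABA was 0.03 for the 41 genes and 0.02 for all genes, while 41.1% of all genes were higher and 39.2% lower. The comparisons share libraries and are not independent of each other. Scaled by library size alone, the median of all genes moved up by 0.42 in iGABA against MEF, by 0.22 in GAD67 against MEF and by 0.19 in iGABA against GAD67, so differences of that size hold relative to TMM scaling. With that scaling the calls over all genes in iGABA against MEF split into 9935 higher and 5278 lower, in place of 7606 and 7180, and the 41 genes in GAD67 against MEF into 10 higher and 31 lower.

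**Figure D1:**
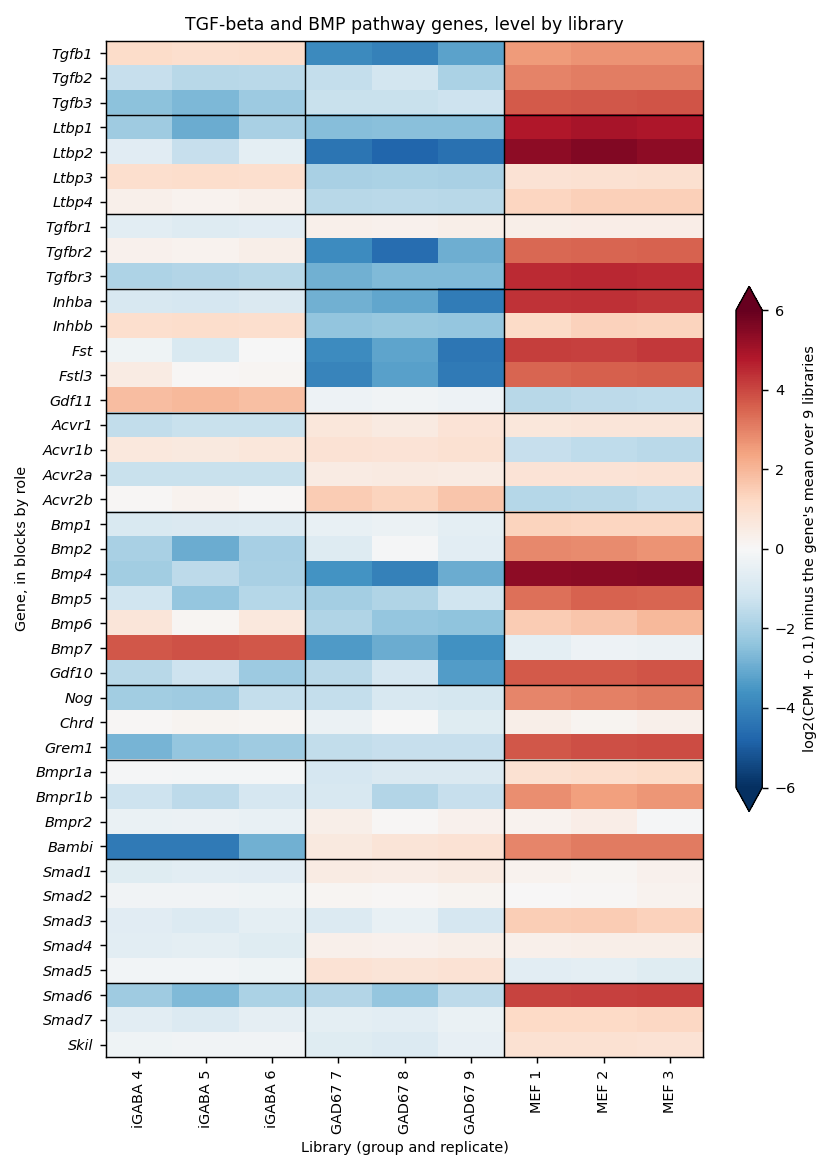
Level of each of the 41 pathway genes (rows, in blocks by role) in each of the 9 libraries (columns), as log2(CPM + 0.1) minus the gene's mean over all libraries, with red above and blue below that mean. The MEF columns are red for most genes, while Bmp7 and Gdf11 are reddest in the iGABA columns and Acvr1b and Acvr2b are blue in MEF.

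**Figure D2:**
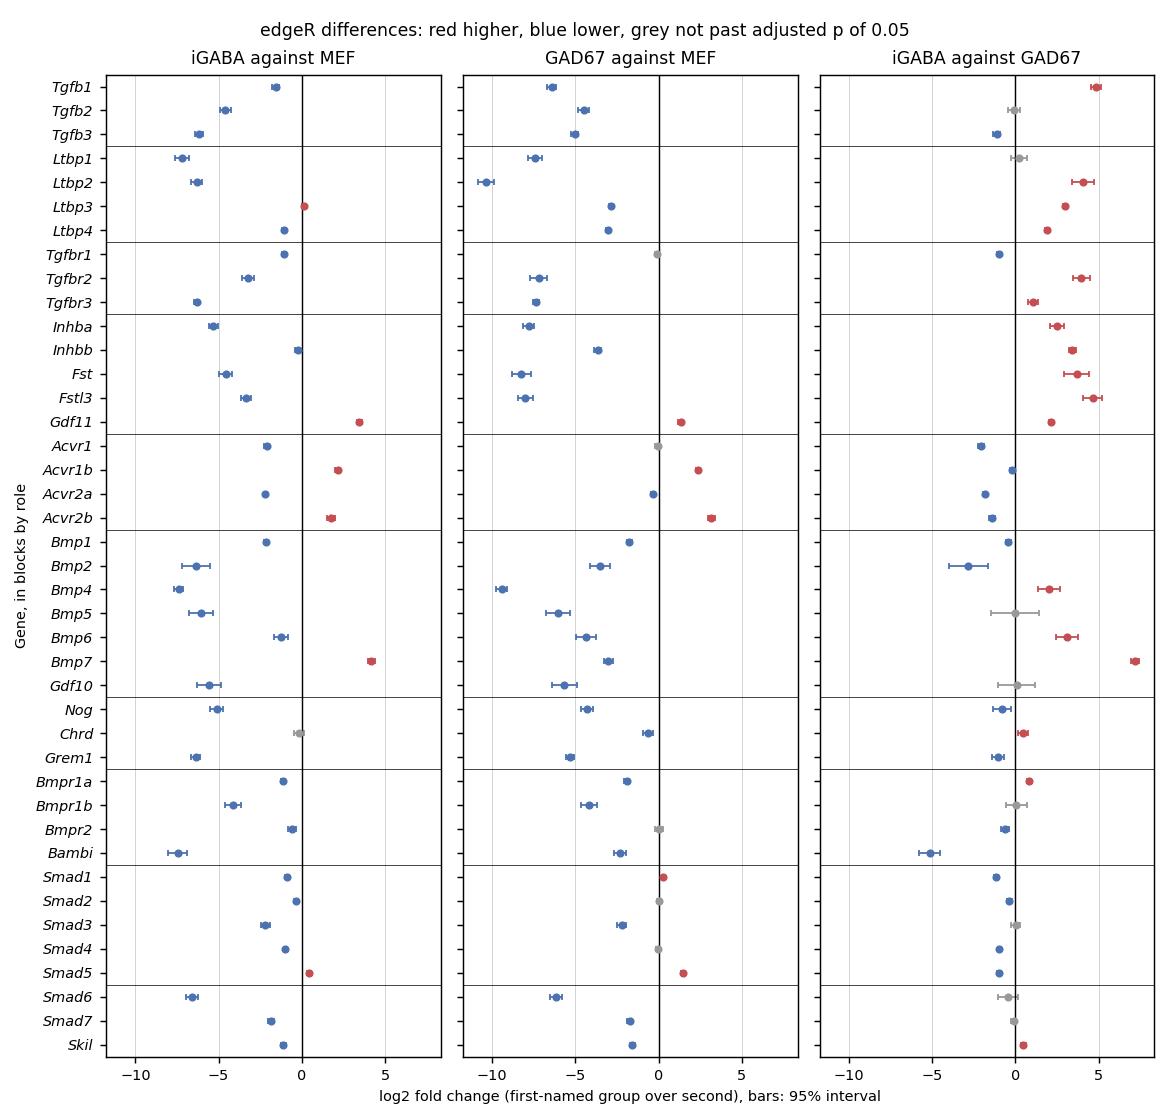
Log2 fold changes of the 41 genes in the 3 comparisons, with 95% intervals from the edgeR fit (red higher, blue lower, grey not past an adjusted p of 0.05). The left panel shows 34 falls and 6 rises in iGABA against MEF, and the right panel an even split of 17 higher and 16 lower in iGABA against GAD67.

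Replicates lay close together. Among genes of at least 1 CPM on average, the median coefficient of variation between replicates was 4.26% over 32 genes in iGABA, 4.76% over 29 genes in GAD67 and 4.87% over 41 genes in MEF. Acvr2a varied least in all 3 groups, and the widest spread was that of Tgfbr2 in GAD67 (59.9%). Values of iGABA and MEF libraries did not overlap for 40 of the 41 genes, against 84.9% of all genes. Those of GAD67 and MEF did not overlap for 36, against 87% of all genes, and those of iGABA and GAD67 for 32, against 82.3%.

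The 3 TGF-beta ligand genes fell in iGABA cells to unequal degrees. Tgfb3 (ENSMUSG00000021253, mm10 chromosome 12, 86056744 to 86079041, minus strand), the ligand gene with the highest level per length in MEF among those followed, had 17.3, 14.8 and 20.95 CPM in iGABA libraries, 38.01, 37.7 and 39.99 CPM in GAD67 libraries and 1223, 1270.1 and 1324 CPM in MEF libraries. The MEF libraries stood far above the others, iGABA lay below GAD67, and no groups overlapped. The fall in iGABA against MEF was 72.2-fold (log2 fold change -6.17 ± 0.11 SE, adjusted p = 3.16e-14), and the difference from GAD67 was also called (log2 fold change -1.13 ± 0.10 SE, adjusted p = 1.90e-07). Tgfb1, the ligand best known from immune cells and wound repair, had 31.2, 29.7 and 30.9 CPM in iGABA libraries, 0.945, 0.795 and 1.47 CPM in GAD67 libraries and 85.6, 94.5 and 93.96 CPM in MEF libraries. Of the 3 ligand genes it had the smallest fall in iGABA against MEF (log2 fold change -1.58) and the largest difference in GAD67 against MEF (log2 fold change -6.42), and iGABA stood 28.7-fold above GAD67 (log2 fold change 4.85 ± 0.13 SE, adjusted p = 3.19e-13). Macrophages are a known source of Tgfb1. The summed macrophage markers given above were lower in iGABA than in MEF, as Tgfb1 was. They were also lower in iGABA than in GAD67, whereas Tgfb1 was higher in iGABA than in GAD67. The part of macrophages in the Tgfb1 levels was not tested. Within GAD67 the level of Tgfb1 was highest in replicate 9 and lowest in replicate 8, as were several marker sums, whose part in it was not tested. In replicates 7, 8 and 9 the endothelial markers summed to 24.3, 12.6 and 44.9 CPM, the mural markers to 24.4, 13.3 and 42.8 CPM and the glutamatergic neuron markers to 47.8, 39.0 and 64.8 CPM, and the macrophage, neuron and interneuron sums had the same order. It was also the order of 14 of the 41 pathway genes, Tgfbr2 and Bmp4 among them. Here too the share of all genes in that order was not computed, and the count is no result about the pathway. Tgfb2, a ligand of embryonic mesenchyme and neurons, averaged 7.102 ± 0.763 CPM in iGABA, 7.51 ± 2.05 in GAD67 and 171 ± 8.04 in MEF (SD, n = 3), and iGABA and GAD67 did not differ beyond their spread (log2 fold change -0.08, 95% interval -0.45 to 0.29, adjusted p = 0.661). Without GAD67 replicate 9 that difference was called (log2 fold change -0.27).

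**Figure D3:**
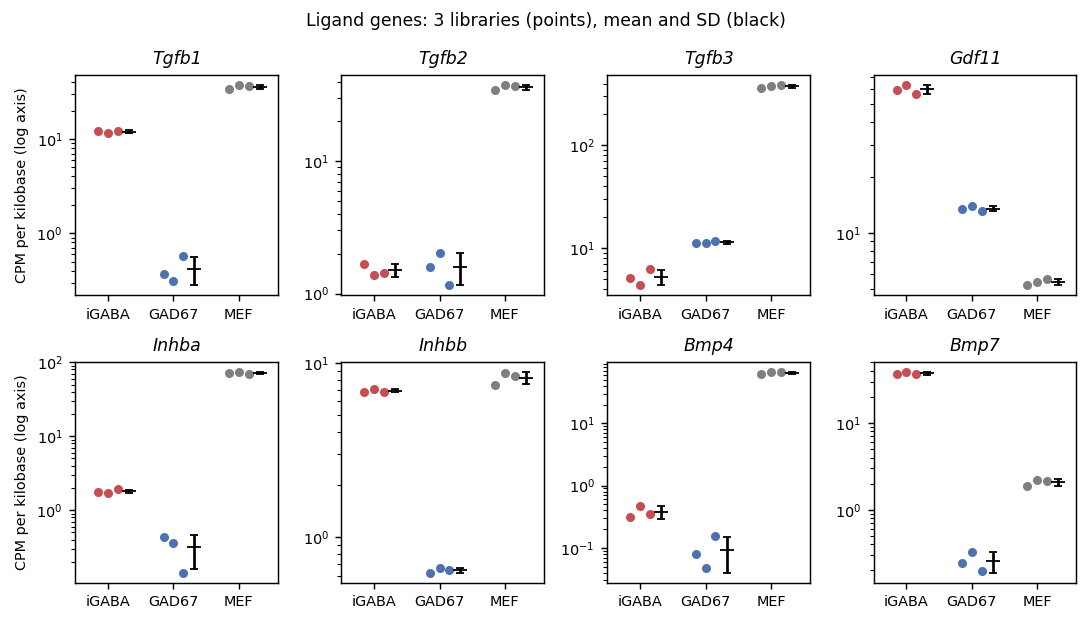
Level of 8 ligand genes in each library as CPM per kilobase of exon (log axis, a separate range in each panel), with the mean and SD of the 3 libraries in black. Tgfb1, Inhbb, Gdf11 and Bmp7 stand well above GAD67 in iGABA, whereas Tgfb2 overlaps between those groups and Bmp4 and Inhba are high in MEF.

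Added up per length, the 3 ligand genes reached 18.7 ± 1.21 CPM per kilobase in iGABA, 13.4 ± 0.182 in GAD67 and 448 ± 17.9 in MEF (SD, n = 3). Tgfb1 made up 64.1% ± 2.79 of that sum in iGABA, 3.12% ± 1.003 in GAD67 and 7.97% ± 0.216 in MEF, so the leading ligand gene was Tgfb1 in iGABA and Tgfb3 in the other groups. The share of Tgfb1 was singled out after its values were seen and has no test. The share of Tgfb2 was 8.04% ± 0.777 in iGABA, 11.9% ± 3.25 in GAD67 and 8.10% ± 0.232 in MEF. The share in iGABA minus that in MEF was -0.0514 percentage points (two-sided exact permutation test, p = 0.9) and the share in iGABA minus that in GAD67 was -3.82 points (exact permutation p = 0.2). With 3 libraries a group this test cannot give a p below 0.1. The direction between iGABA and MEF turned with CPM not divided by length (1.67 points), so no direction can be given.

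Latent TGF-beta binding proteins split into 2 genes that fell steeply and 2 that stayed well expressed in iGABA. Ltbp1, which anchors latent TGF-beta to the matrix, had 3.79, 2.08 and 4.32 CPM in iGABA libraries, 2.73, 2.89 and 2.91 CPM in GAD67 libraries and 466, 515 and 489 CPM in MEF libraries. Both neuronal groups lay far below MEF, with a 147-fold fall in iGABA (log2 fold change -7.20 ± 0.18 SE, adjusted p = 3.47e-11), and they did not differ from each other beyond their spread (log2 fold change 0.23, 95% interval -0.26 to 0.72, adjusted p = 0.348), although without iGABA replicate 5, the one with the lowest level and the lowest fibroblast sum, iGABA was called higher (log2 fold change 0.51). Ltbp2, a fibrillin-binding family member that is known not to bind latent TGF-beta, had 5.52, 3.44 and 6.04 CPM in iGABA libraries, 0.332, 0.239 and 0.311 CPM in GAD67 libraries and 381, 424 and 375 CPM in MEF libraries. The 3 groups were apart from each other, iGABA in the middle, with log2 fold changes of -6.31 in iGABA and -10.37 in GAD67 against MEF. Part of the Ltbp2 exons (9.34% of their length) overlap exons of a gene on the other strand.

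Ltbp3 (ENSMUSG00000024940, mm10 chromosome 19, 5740904 to 5758532, plus strand), whose product is known to help secrete latent TGF-beta, ran against this pattern. It had 305, 320.2 and 303 CPM in iGABA libraries, 39.2, 40.6 and 39.5 CPM in GAD67 libraries and 278, 282 and 295 CPM in MEF libraries. All iGABA libraries stood just above the MEF libraries and 7.79-fold above GAD67 (log2 fold change 2.96 ± 0.05 SE, adjusted p = 8.11e-15). The small rise over MEF (log2 fold change 0.12 ± 0.05 SE, adjusted p = 0.0365) was not called in 8 of the alternatives, among them DESeq2's size factors and 5 of the 9 fits that left out a library. Ltbp4 lay between, at 93.04 ± 3.49 CPM in iGABA, 24.6 ± 0.645 in GAD67 and 199 ± 9.68 in MEF (SD, n = 3). Of the per-length sum of the 4 genes, Ltbp3 took 79.5% ± 1.34 in iGABA, 65.1% ± 0.151 in GAD67 and 30.5% ± 1.24 in MEF. These shares did not overlap between any of the groups (exact permutation p = 0.1 for each pair, the smallest possible).

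Of the TGF-beta receptors, the type I kinase changed least. Tgfbr2 (ENSMUSG00000032440, mm10 chromosome 9, 116087698 to 116175363, minus strand), the type II receptor that binds TGF-beta, had 19.8, 19.3 and 21.5 CPM in iGABA libraries, 1.15, 0.6098 and 2.15 CPM in GAD67 libraries and 181, 191 and 196 CPM in MEF libraries. The fall was 9.39-fold in iGABA (log2 fold change -3.23 ± 0.16 SE, adjusted p = 2.03e-08) and 147-fold in GAD67, and iGABA stayed 15.7-fold above GAD67 (log2 fold change 3.97 ± 0.23 SE, adjusted p = 7.45e-08). In GAD67 the level was highest in replicate 9 and lowest in replicate 8, the order of the endothelial, mural and glutamatergic marker sums given above, whose part was not tested. Tgfbr1, the type I kinase also used by Gdf11, had 42.7, 39.5 and 42.2 CPM in iGABA libraries, 81.7, 80.02 and 86.6 CPM in GAD67 libraries and 84.5, 89.6 and 87.9 CPM in MEF libraries. GAD67 and MEF overlapped and did not pass (log2 fold change -0.08, 95% interval -0.20 to 0.04, adjusted p = 0.1999), while with library size alone GAD67 was called higher (log2 fold change 0.15), and iGABA stood 2.11-fold below MEF (log2 fold change -1.07 ± 0.06 SE, adjusted p = 4.21e-10). Tgfbr3 (betaglycan), a co-receptor that presents Tgfb2 and also binds inhibin, had 1.63, 1.72 and 1.88 CPM in iGABA libraries, 0.741, 0.875 and 0.875 CPM in GAD67 libraries and 137, 144 and 137 CPM in MEF libraries. MEF was far above both other groups, with a log2 fold change of -6.32 in iGABA and -7.39 in GAD67.

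Among the activin and Gdf11 ligands, Gdf11 rose and Inhba fell. Gdf11 (ENSMUSG00000025352, mm10 chromosome 10, 128882295 to 128891718, minus strand), a relative of myostatin known in mouse for limiting the production of olfactory neurons, had 241, 258 and 230.2 CPM in iGABA libraries, 54.5, 56.7 and 53.6 CPM in GAD67 libraries and 21.1, 22.2 and 22.9 CPM in MEF libraries. Every iGABA library lay above every GAD67 library, and these above every MEF library. The rise in iGABA was 11.02-fold over MEF (log2 fold change 3.46 ± 0.06 SE, adjusted p = 8.42e-15) and 4.43-fold over GAD67 (log2 fold change 2.15 ± 0.06 SE, adjusted p = 3.60e-13). Inhba, which encodes the subunit of activin A, had 3.54, 3.42 and 3.78 CPM in iGABA libraries, 0.869, 0.716 and 0.282 CPM in GAD67 libraries and 140.3, 147 and 139.5 CPM in MEF libraries. It was high in MEF and lower in both neuronal groups, by 39.8-fold in iGABA (log2 fold change -5.32 ± 0.12 SE, adjusted p = 2.15e-13) and by 224-fold in GAD67. Inhbb, the subunit of activin B, had 29.1, 30.1 and 29.1 CPM in iGABA libraries, 2.66, 2.84 and 2.77 CPM in GAD67 libraries and 31.9, 37.2 and 35.9 CPM in MEF libraries. iGABA lay close to MEF and 10.7-fold above GAD67 (log2 fold change 3.42 ± 0.09 SE, adjusted p = 3.13e-13), and its small difference from MEF (log2 fold change -0.25 ± 0.07 SE, adjusted p = 0.00655) turned into a rise with library size alone (log2 fold change 0.17). Summed per length, the 3 ligand genes reached 68.6 ± 3.48 CPM per kilobase in iGABA, 14.5 ± 0.504 in GAD67 and 85.5 ± 2.53 in MEF. Gdf11 made up 87.3% ± 0.614 of this sum in iGABA, 93.4% ± 0.858 in GAD67 and 6.35% ± 0.264 in MEF.

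The follistatins, which bind activins and keep them from their receptors, fell with Inhba. Fst had 4.03, 2.51 and 4.72 CPM in iGABA libraries, 0.255, 0.451 and 0.141 CPM in GAD67 libraries and 87.6, 83.6 and 92.2 CPM in MEF libraries. Its libraries were ordered MEF, iGABA, GAD67 from high to low without overlap, and the fall in iGABA was 23.7-fold (log2 fold change -4.57 ± 0.18 SE, adjusted p = 5.27e-10). Its iGABA replicates ran in the order of the fibroblast sums given above, as did those of Inhba, whose range was narrow. Fstl3 had 4.85, 3.63 and 3.69 CPM in iGABA libraries, 0.128, 0.265 and 0.0847 CPM in GAD67 libraries and 39.9, 42.2 and 43.7 CPM in MEF libraries, in the same order and likewise without overlap. iGABA was 10.3-fold below MEF and 24.8-fold above GAD67 (log2 fold change 4.64 ± 0.25 SE, adjusted p = 6.75e-10). Exons of Prss57 on the other strand cover 47.3% of the Fstl3 exon length, and without a stated strand setting the counts of such a pair cannot be told apart.

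Gdf11 and Acvr1b rose in iGABA, and Smad6, an inhibitor known to be induced by the pathway itself, fell. The promoters of these 3 genes, chosen by hand, are shown. Each is the stretch of 250 bases before to 50 bases after the annotated RefSeq start (build GRCm38.p6, the same assembly as mm10), written 5′ to 3′ on the gene's strand. Capitals mark matches on either strand to CAGAC (reverse GTCTG, a core site of Smad3 and Smad4), GTCTAGAC (the palindromic Smad element), GGCGCC (a GC-rich site bound by Smads of the BMP branch) and CAGCTG (an E-box of proneural factors). The last 3 are palindromes, and GTCTAGAC does not contain CAGAC.
Gdf11, chr10:128891669-128891968, minus strand: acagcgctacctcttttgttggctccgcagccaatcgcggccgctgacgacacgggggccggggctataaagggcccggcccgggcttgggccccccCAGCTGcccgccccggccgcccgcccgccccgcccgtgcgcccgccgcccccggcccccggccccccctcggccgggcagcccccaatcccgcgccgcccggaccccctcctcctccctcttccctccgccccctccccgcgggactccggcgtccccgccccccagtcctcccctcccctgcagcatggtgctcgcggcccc
Acvr1b, chr15:101173822-101174121, plus strand: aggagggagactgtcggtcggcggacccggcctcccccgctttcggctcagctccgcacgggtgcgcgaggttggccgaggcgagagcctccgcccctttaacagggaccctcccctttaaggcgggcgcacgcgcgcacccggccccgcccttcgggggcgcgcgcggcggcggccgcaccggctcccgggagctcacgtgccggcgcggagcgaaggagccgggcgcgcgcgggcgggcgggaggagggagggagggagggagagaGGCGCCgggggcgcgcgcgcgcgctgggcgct
Smad6, chr9:64022010-64022309, minus strand: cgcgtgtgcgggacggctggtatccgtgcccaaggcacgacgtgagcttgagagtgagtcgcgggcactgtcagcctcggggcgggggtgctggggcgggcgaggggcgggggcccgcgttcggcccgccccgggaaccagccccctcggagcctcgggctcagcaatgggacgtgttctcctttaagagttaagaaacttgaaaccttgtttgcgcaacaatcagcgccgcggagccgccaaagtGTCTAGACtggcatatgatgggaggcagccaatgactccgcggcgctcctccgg
The Gdf11 window held 1 E-box and none of the Smad motifs, the Acvr1b window held 1 GC-rich Smad site, and the Smad6 window held 1 palindromic Smad element. Among 32851 promoter windows of the same length, the Smad3 and Smad4 core was found in 49.6%, the GC-rich site in 11.9%, the E-box in 16.3% and the palindromic element in 0.213%, which is 70 windows. RefSeq windows were at hand for 29 of the 41 genes (37 windows), of which 18 held the core, 11 the GC-rich site, 5 the E-box and 1, that of Smad6, the palindromic element. The homeodomain site TAATTA was in 0 of the 37 windows and in 5.29% of all windows. The Sox site ACAATG, searched on both strands, was in 3 of the 37 windows and in 12.6% of all. The windows of the pathway genes had a median GC content of 66.3%, against 52.7% over all windows, and its part in the motif shares was not tested. A match is a description of the letters and does not show binding.

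Of the activin receptors, Acvr1b and Acvr2b rose in iGABA and Acvr2a and Acvr1 fell. Acvr1b (ENSMUSG00000000532, mm10 chromosome 15, 101174104 to 101213678, plus strand), the type I kinase of activin, had 128, 123 and 131 CPM in iGABA libraries, 149.8, 143 and 152 CPM in GAD67 libraries and 30.98, 28.7 and 26.8 CPM in MEF libraries. Both neuronal groups stood far above MEF, with a 4.42-fold rise in iGABA (log2 fold change 2.15 ± 0.06 SE, adjusted p = 7.55e-13) and a 5.15-fold difference in GAD67 (log2 fold change 2.36 ± 0.06 SE, adjusted p = 1.38e-13). iGABA lay a little below GAD67 (log2 fold change -0.22 ± 0.06 SE, adjusted p = 0.00312), a call lost with library size alone (log2 fold change -0.02). Acvr2b, a type II receptor shared by activins, Gdf11 and some BMPs, had 14.1, 15.8 and 14.1 CPM in iGABA libraries, 39.5, 34.8 and 42.5 CPM in GAD67 libraries and 4.101, 4.15 and 4.68 CPM in MEF libraries. It rose 3.401-fold in iGABA (log2 fold change 1.77 ± 0.11 SE, adjusted p = 2.18e-09) and stayed 2.65-fold under the GAD67 level (log2 fold change -1.41 ± 0.09 SE, adjusted p = 4.90e-09). Acvr2a, the other type II receptor of activins, had 25.8, 25.7 and 25.6 CPM in iGABA libraries, 92.5, 93.4 and 91.6 CPM in GAD67 libraries and 116, 117 and 118 CPM in MEF libraries. It fell 4.56-fold in iGABA (log2 fold change -2.19 ± 0.05 SE, adjusted p = 6.03e-14) and lay only slightly lower in GAD67 than in MEF (log2 fold change -0.34). Of the per-length sum of both type II genes, Acvr2b held 64.9% ± 1.51 in iGABA, 57.6% ± 2.701 in GAD67 and 10.7% ± 0.6302 in MEF, a share singled out after its values were seen. Acvr1, which in spite of its name chiefly serves BMP ligands, had 16.1, 18.2 and 17.8 CPM in iGABA libraries, 71.9, 65.9 and 79.4 CPM in GAD67 libraries and 74.3, 75.9 and 76.4 CPM in MEF libraries. It was low in iGABA, 4.17-fold below GAD67 (log2 fold change -2.06 ± 0.08 SE, adjusted p = 8.65e-12), and GAD67 and MEF did not pass (log2 fold change -0.06, 95% interval -0.21 to 0.09, adjusted p = 0.425), although with library size alone GAD67 was called higher than MEF (log2 fold change 0.16).

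**Figure D4:**
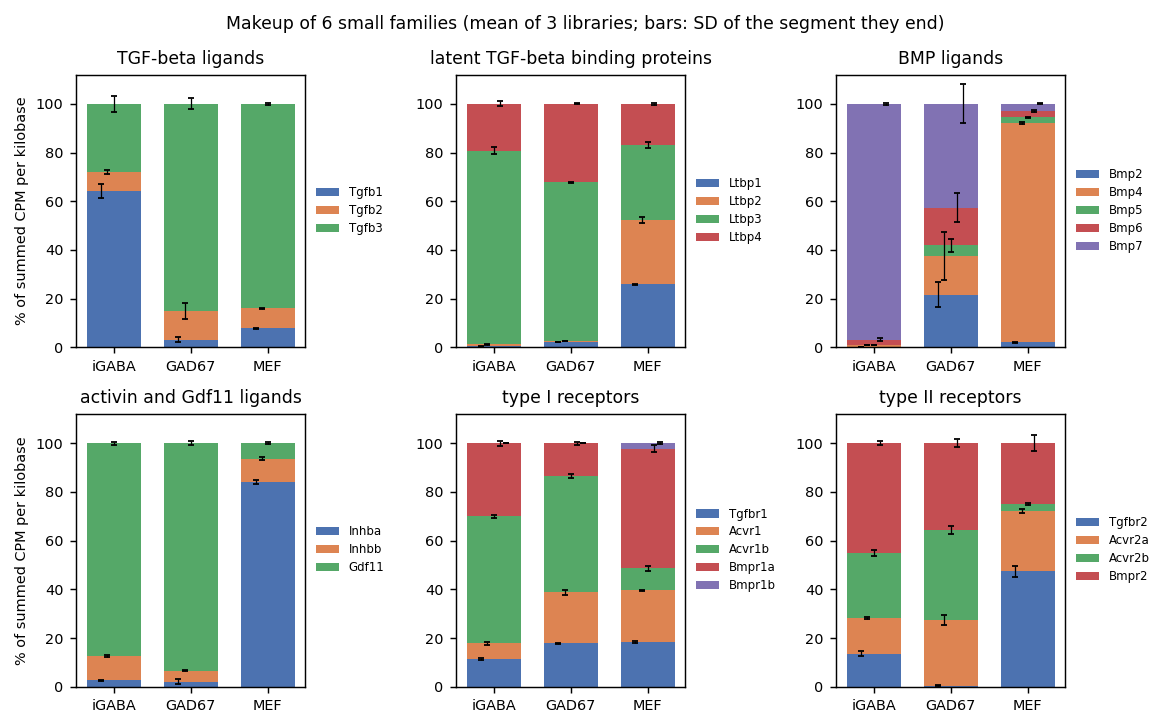
Makeup of 6 small families in each group, as the percentage each gene holds of the family's summed CPM per kilobase (mean of 3 libraries, bars giving the SD of the segment they end). Tgfb1 and Bmp7 fill most of their bars in iGABA, Gdf11 and Acvr1b take large shares in both neuronal groups, and Inhba, Bmp4 and Tgfbr2 are large in MEF.

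Among the BMP ligands Bmp7 rose and Bmp4 fell in iGABA, and both were lower in GAD67 than in MEF. Bmp7 (ENSMUSG00000008999, mm10 chromosome 2, 172868012 to 172940321, minus strand), a ligand known from kidney, eye and the dorsal midline of the forebrain, had 149, 156 and 147 CPM in iGABA libraries, 0.971, 1.33 and 0.791 CPM in GAD67 libraries and 7.47, 8.82 and 8.698 CPM in MEF libraries. The iGABA libraries stood far above all others, 18.01-fold over MEF (log2 fold change 4.17 ± 0.09 SE, adjusted p = 4.49e-14) and 145-fold over GAD67 (log2 fold change 7.18 ± 0.12 SE, adjusted p = 3.53e-15), and GAD67 was below MEF (log2 fold change -3.01). Bmp4 (ENSMUSG00000021835, mm10 chromosome 14, 46383520 to 46390669, minus strand), a ligand of embryonic mesenchyme, had 0.693, 1.05 and 0.782 CPM in iGABA libraries, 0.179, 0.106 and 0.339 CPM in GAD67 libraries and 138, 146 and 148 CPM in MEF libraries. It was high in MEF, with a 169-fold fall in iGABA (log2 fold change -7.40 ± 0.13 SE, adjusted p = 4.36e-15) and a 691-fold difference in GAD67 (log2 fold change -9.43 ± 0.15 SE, adjusted p = 1.08e-15). The per-length sum of Bmp2, Bmp4, Bmp5, Bmp6 and Bmp7 was 38.7 ± 1.12 CPM per kilobase in iGABA, 0.596 ± 0.0498 in GAD67 and 71.9 ± 2.66 in MEF (SD, n = 3). Bmp7 made up 96.8% ± 0.392 of it in iGABA and 2.88% ± 0.161 in MEF, where Bmp4 held 90.1% ± 0.301. In GAD67 Bmp7 held 42.6% ± 8.07, Bmp2 21.6% ± 5.11 and Bmp4 16.1% ± 9.77, from only 2 to 50 counts per gene and library.

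The remaining BMP ligands were scarce in iGABA and GAD67. Bmp6 averaged 1.95 ± 0.413 CPM in iGABA, 0.221 ± 0.0749 in GAD67 and 4.63 ± 0.697 in MEF (SD, n = 3), and fell 2.38-fold in iGABA. Bmp2, a close relative of Bmp4, had 0.09896, 0 and 0.0938 CPM in iGABA libraries, 0.358, 0.636 and 0.395 CPM in GAD67 libraries and 5.57, 5.46 and 4.98 CPM in MEF libraries, and the 0 in iGABA replicate 5 allows up to 0.0717 CPM. It was lower in iGABA than in GAD67 (log2 fold change -2.85 ± 0.54 SE, adjusted p = 0.000268) as well as in MEF (log2 fold change -6.36). Without iGABA replicate 5, the library with 0 counts, these were -2.21 against GAD67 and -5.73 against MEF. Bmp5 was at 0.09696 ± 0.0747 CPM in iGABA, 0.10003 ± 0.0618 in GAD67 and 6.63 ± 0.5596 in MEF, and a difference between the neuronal groups was not detectable at this depth (log2 fold change -0.03, 95% interval -1.44 to 1.39, adjusted p = 0.976). Gdf10, a relative of Bmp3, was at 0.5001 ± 0.1901 CPM in iGABA, 0.481 ± 0.383 in GAD67 and 24.9 ± 0.908 in MEF, again with overlapping neuronal groups (log2 fold change 0.07, 95% interval -1.06 to 1.20, adjusted p = 0.905). Bmp1 is no BMP ligand but a protease that cleaves procollagens and chordin, and it fell 4.502-fold in iGABA, to 60.9 ± 1.35 CPM, against 81.5 ± 6.498 in GAD67 and 274 ± 5.53 in MEF.

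Of the secreted BMP antagonists, chordin was the 1 gene that did not fall past the threshold in iGABA. Chrd had 23.8, 25.5 and 24.8 CPM in iGABA libraries, 17.9, 22.1 and 13.8 CPM in GAD67 libraries and 29.4, 25.3 and 27.9 CPM in MEF libraries. Its iGABA and MEF libraries overlapped and did not pass (log2 fold change -0.16, 95% interval -0.45 to 0.13, adjusted p = 0.286), while GAD67 was somewhat lower than both (log2 fold change -0.62 ± 0.13 SE, adjusted p = 0.000887 against MEF). Grem1, the gremlin gene of mesenchyme, had 0.619, 0.908 and 1.03 CPM in iGABA libraries, 1.66, 1.803 and 1.81 CPM in GAD67 libraries and 65.8, 71.4 and 74.5 CPM in MEF libraries. The fall was 83.5-fold in iGABA (log2 fold change -6.38 ± 0.13 SE, adjusted p = 1.70e-14), which was also below GAD67 (log2 fold change -1.06). Nog, the noggin gene, averaged 0.579 ± 0.203 CPM in iGABA, 1.002 ± 0.185 in GAD67 and 19.7 ± 1.35 in MEF (SD, n = 3), a 34.8-fold fall in iGABA.

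All 4 BMP receptor and decoy genes fell in iGABA, the decoy most and Bmpr2 least. Bambi (ENSMUSG00000024232, mm10 chromosome 18, 3507957 to 3516404, plus strand), a receptor-like protein without a kinase that dampens the pathway and is itself induced by it, had 0.0742, 0.0717 and 0.344 CPM in iGABA libraries, 4.905, 5.49 and 5.902 CPM in GAD67 libraries and 24.7, 28.1 and 28.4 CPM in MEF libraries. iGABA lay 177-fold below MEF (log2 fold change -7.47 ± 0.26 SE, adjusted p = 6.43e-12) and 35.5-fold below GAD67 (log2 fold change -5.15 ± 0.29 SE, adjusted p = 1.23e-09), with no overlap, from 3, 3 and 11 counts in the iGABA libraries. Without iGABA replicate 6 the log2 fold change was -8.46 against MEF and -6.14 against GAD67. Bmpr1a, the widely expressed type I receptor, averaged 106 ± 2.88 CPM in iGABA, 60.4 ± 2.86 in GAD67 and 229 ± 13.8 in MEF (SD, n = 3), and fell 2.16-fold in iGABA. Bmpr1b, its restricted relative, had 0.569, 0.42999 and 0.688 CPM in iGABA libraries, 0.715, 0.371 and 0.508 CPM in GAD67 libraries and 10.98, 8.65 and 9.85 CPM in MEF libraries. Both neuronal groups were low, 17.6-fold below MEF in iGABA, and overlapped (log2 fold change 0.05, 95% interval -0.58 to 0.69, adjusted p = 0.876). Bmpr2, the type II receptor of BMPs, had 50.1, 51.6 and 48.1 CPM in iGABA libraries, 83.7, 68.4 and 77.2 CPM in GAD67 libraries and 75.2, 86.2 and 62.5 CPM in MEF libraries. It was lower in iGABA than in MEF (log2 fold change -0.58 ± 0.11 SE, adjusted p = 0.000289), a call lost with library size alone (log2 fold change -0.16), and GAD67 and MEF overlapped (log2 fold change 0.04, 95% interval -0.19 to 0.27, adjusted p = 0.755), where library size alone gave a higher level in GAD67 (log2 fold change 0.26). Among type I BMP receptors per length, Bmpr1a held 81.9% ± 1.27 in iGABA, 38.7% ± 2.25 in GAD67 and 67.6% ± 1.19 in MEF, with Acvr1 making up most of the rest. None of these shares overlapped between groups (exact permutation p = 0.1 for each pair, the smallest possible).

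Of the signalling Smads, Smad3 had the largest fall and Smad5 was the 1 gene that rose in iGABA. Smad3, which carries TGF-beta and activin signals and binds DNA directly, had 22.7, 20.5 and 24.2 CPM in iGABA libraries, 20.6, 27.2 and 18.2 CPM in GAD67 libraries and 102, 107 and 97.2 CPM in MEF libraries. It fell 4.55-fold in iGABA (log2 fold change -2.19 ± 0.12 SE, adjusted p = 7.94e-09) and stood 4.63-fold lower in GAD67, and the neuronal groups overlapped (log2 fold change 0.03, 95% interval -0.25 to 0.30, adjusted p = 0.861), though without GAD67 replicate 8 iGABA was called higher (log2 fold change 0.20). Smad5, of the BMP branch, had 134, 133 and 125 CPM in iGABA libraries, 269, 253 and 269 CPM in GAD67 libraries and 95.7, 101 and 90.1 CPM in MEF libraries. Its libraries were ordered MEF, iGABA, GAD67 from low to high, with a 1.37-fold rise in iGABA (log2 fold change 0.45 ± 0.06 SE, adjusted p = 4.16e-06) and a 2.76-fold difference in GAD67. Smad1, also of the BMP branch, had 30.7, 32.03 and 31.6 CPM in iGABA libraries, 70.02, 68.1 and 71.7 CPM in GAD67 libraries and 57.6, 55.1 and 59.2 CPM in MEF libraries. It was lower in iGABA than in MEF (log2 fold change -0.87 ± 0.05 SE, adjusted p = 3.26e-09) and slightly higher in GAD67 than in MEF (log2 fold change 0.29 ± 0.05 SE, adjusted p = 0.000176). Smad2 had 56.6, 57.5 and 56.01 CPM in iGABA libraries, 73.2, 70.1 and 74.8 CPM in GAD67 libraries and 68.3, 68.97 and 76.9 CPM in MEF libraries, a narrow range, with a small fall in iGABA (log2 fold change -0.33 ± 0.06 SE, adjusted p = 0.000129) that turned with library size alone (log2 fold change 0.08). GAD67 and MEF did not pass for Smad2 (log2 fold change 0.03, 95% interval -0.10 to 0.15, adjusted p = 0.681), and library size alone gave a higher level in GAD67 (log2 fold change 0.25). Smad4, the partner of all receptor Smads, averaged 91.5 ± 4.09 CPM in iGABA, 178 ± 6.35 in GAD67 and 181 ± 2.19 in MEF (SD, n = 3), lower in iGABA than in GAD67 (log2 fold change -0.96). GAD67 and MEF did not pass for Smad4 (log2 fold change -0.02, 95% interval -0.13 to 0.09, adjusted p = 0.694), where library size alone called GAD67 higher (log2 fold change 0.20). Summed per length, Smad5 held 40.9% ± 1.04 of the receptor Smads in iGABA, 49.3% ± 0.831 in GAD67 and 20.99% ± 1.13 in MEF, and Smad3 held 9.43% ± 0.868 in iGABA, 5.54% ± 1.28 in GAD67 and 30.1% ± 1.43 in MEF.

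The inhibitory Smads, known as feedback genes of the pathway, were below the fibroblast level in both neuronal groups. Smad6 (ENSMUSG00000036867, mm10 chromosome 9, 63953076 to 64022059, minus strand), which blocks mainly the BMP branch and whose promoter window holds GTCTAGAC, had 0.495, 0.311 and 0.594 CPM in iGABA libraries, 0.664, 0.424 and 0.791 CPM in GAD67 libraries and 43.8, 44.7 and 46.1 CPM in MEF libraries. The fall was 97.6-fold in iGABA (log2 fold change -6.61 ± 0.17 SE, adjusted p = 2.24e-13) and the difference 71.5-fold in GAD67 (log2 fold change -6.16 ± 0.16 SE, adjusted p = 1.33e-13). The neuronal groups overlapped (log2 fold change -0.45, 95% interval -1.04 to 0.14, adjusted p = 0.144), and without GAD67 replicate 8 iGABA was called lower (log2 fold change -0.66). Smad7, which blocks both branches, averaged 26.4 ± 2.38 CPM in iGABA, 28.5 ± 2.74 in GAD67 and 95.1 ± 1.47 in MEF (SD, n = 3), and the neuronal groups did not pass (log2 fold change -0.11, 95% interval -0.28 to 0.06, adjusted p = 0.214). Skil, the SnoN corepressor of Smad-bound genes, had 91.6, 94.9 and 95.001 CPM in iGABA libraries, 64.6, 61.5 and 76.03 CPM in GAD67 libraries and 204, 205 and 196 CPM in MEF libraries, with a 2.15-fold fall in iGABA and iGABA above GAD67 (log2 fold change 0.48 ± 0.07 SE, adjusted p = 2.24e-05). Smad6 and Smad7 together held 8.12% ± 0.867 of the per-length sum of Smad1 to Smad7 in iGABA, 5.12% ± 0.381 in GAD67 and 24.2% ± 0.209 in MEF, without overlap (exact permutation p = 0.1 for each pair, the smallest possible).

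A further 102 genes of the pathway and its targets were read from 7 lists, of which 87 passed the low-count filter. In iGABA against MEF 63 fell and 17 rose, in GAD67 against MEF 65 were lower and 18 higher. In iGABA against GAD67 48 were higher and 28 lower. Over all genes, 39.7% were lower and 42.1% higher in iGABA against MEF, and 43.7% and 43.1% in GAD67 against MEF. In iGABA against GAD67 41.1% of all genes were higher and 39.2% lower. The counts of each list below stand beside the same shares. The median log2 fold change of the 87 genes was -2.44 in iGABA against MEF and -3.75 in GAD67 against MEF. It was 1.11 in iGABA against GAD67, beside the medians of all genes given above. These comparisons share libraries with those of the 41 genes.

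Target genes of TGF-beta were low in both neuronal groups. All 14 fell in iGABA and were lower in GAD67 than in MEF, and 13 of the 14 were higher in iGABA than in GAD67. Of all genes, 39.7% fell in iGABA, 43.7% were lower in GAD67 than in MEF and 41.1% were higher in iGABA than in GAD67. Col1a1, Col1a2 and Fn1 of this list are also fibroblast markers, whose sums are given above, and the part of fibroblasts in these values was not tested. Acta2, smooth muscle actin, had 7.17, 4.59 and 7.85 CPM in iGABA libraries, 1.38, 1.19 and 1.24 CPM in GAD67 libraries and 4494, 4644 and 4992 CPM in MEF libraries, with a log2 fold change of -9.50 in iGABA against MEF. Col1a2, a collagen chain gene, was at 214 ± 72.8 CPM in iGABA, 9.53 ± 0.197 in GAD67 and 24134 ± 1251 in MEF (SD, n = 3). Tagln, a contractile protein gene, was at 6.44 ± 1.21 CPM in iGABA, 0.847 ± 0.148 in GAD67 and 2025 ± 114 in MEF (SD, n = 3). Tgfbi, a matrix protein gene named for its induction by TGF-beta, was the 1 gene of the list lower in iGABA than in GAD67 (log2 fold change -2.59 ± 0.15 SE, adjusted p = 1.45e-09), at 0.591 ± 0.105 CPM in iGABA, 3.55 ± 0.4404 in GAD67 and 274 ± 12.2 in MEF.

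Target genes of BMPs were divided. In iGABA 6 of 11 fell against MEF and 5 rose (Id2, Id4, Hey1, Dlx5 and Gata2). In GAD67 9 were lower than in MEF and 2 higher (Id4 and Dlx5), and 9 were higher in iGABA than in GAD67. Of all genes, 39.7% fell and 42.1% rose in iGABA, and 43.7% were lower and 43.1% higher in GAD67 than in MEF. Higher in iGABA than in GAD67 were 41.1% of all genes. The Id genes encode inhibitors of basic helix-loop-helix factors and are direct BMP targets in many cells. Id1 had 10.6, 12.1 and 11.7 CPM in iGABA libraries, 2.55, 2.39 and 1.98 CPM in GAD67 libraries and 65.5, 65.97 and 69.98 CPM in MEF libraries, a fall of 5.85-fold in iGABA against MEF, with iGABA 4.95-fold above GAD67 (log2 fold change 2.31 ± 0.10 SE, adjusted p = 7.57e-11). Id2 had 199, 200.1 and 194 CPM in iGABA libraries, 35.6, 36.99 and 41.7 CPM in GAD67 libraries and 80.2, 81.7 and 84.1 CPM in MEF libraries, and rose 2.41-fold in iGABA against MEF (log2 fold change 1.27 ± 0.06 SE, adjusted p = 1.27e-10). Gata2, a zinc-finger factor, was at 49.4 ± 6.15 CPM in iGABA, 0.284 ± 0.0728 in GAD67 and 2.08 ± 0.0323 in MEF (SD, n = 3). Dlx5, also in this list, is known as a factor delivered in this study, so reads of a delivered copy and of the cells' own gene cannot be told apart. It averaged 59.1 ± 0.611 CPM in iGABA, 215 ± 18.8 in GAD67 and 1.87 ± 0.111 in MEF. Id1, Id2, Id4 and Hey1 were chosen after their values were seen.

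**Figure D5:**
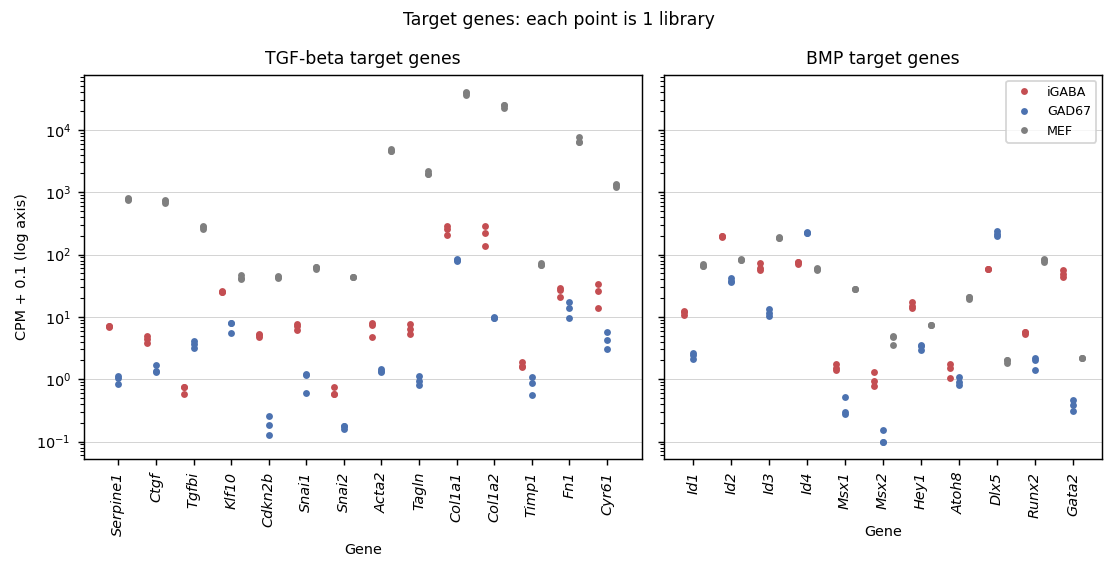
Level of 14 TGF-beta and 11 BMP target genes in each of the 9 libraries, as CPM + 0.1 on a log axis. For every TGF-beta target the MEF points are highest, while Id2, Hey1 and Gata2 are highest in iGABA and Id4 and Dlx5 in GAD67.

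Secreted and matrix regulators followed the fibroblast pattern with exceptions. Of 14 genes for storing and activating TGF-beta, 13 fell in iGABA and 1 (Itgb6, an integrin subunit) rose. In GAD67 13 were lower than in MEF and 1 (Itgb8) was higher. Itgb6 rested on few counts, 41 over the iGABA libraries, 1 over the GAD67 libraries and 6 over the MEF libraries. Dcn, a proteoglycan that binds TGF-beta, was at 3.94 ± 0.482 CPM in iGABA, 0.16002 ± 0.02295 in GAD67 and 406 ± 20.99 in MEF (SD, n = 3). Itgb8, an integrin subunit that activates TGF-beta, had 3.91, 3.18 and 3.31 CPM in iGABA libraries, 48.4, 42.8 and 53.2 CPM in GAD67 libraries and 16.5, 18.8 and 14.9 CPM in MEF libraries. GAD67 stood above both other groups, and iGABA below both (log2 fold change -3.79 ± 0.12 SE, adjusted p = 2.27e-12 against GAD67). Of 13 measured secreted binders and proteases, 10 fell in iGABA, 2 rose (Sost and Dand5) and 1 did not pass (Tll2). Sost, the sclerostin gene, which is best known from bone, had 10.4, 10.5 and 9.91 CPM in iGABA libraries, 0, 0 and 0.0282 CPM in GAD67 libraries and 0.0732, 0.132 and 0.0302 CPM in MEF libraries. The iGABA libraries stood far above the others, 128-fold over MEF (log2 fold change 6.99 ± 0.28 SE, adjusted p = 2.61e-11), and the 1 count in GAD67 gave a ratio of 1158 (95% counting interval 207 to 45758). Bmper, a BMP-binding protein of endothelium, was lower in iGABA (0.503 ± 0.10002 CPM) than in GAD67 (22.7 ± 6.299 CPM) and in MEF (7.77 ± 0.832 CPM). Within GAD67 it had 21.1, 17.3 and 29.6 CPM in replicates 7, 8 and 9, in the order of the endothelial, mural and glutamatergic marker sums given above, whose part was not tested.

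Of 10 measured further ligands, 7 fell in iGABA, 1 rose and 2 did not pass (Bmp3 and Amh). The rise was that of Inha, the inhibin alpha subunit, which averaged 42.1 ± 2.88 CPM in iGABA, 30.98 ± 4.01 in GAD67 and 8.26 ± 0.899 in MEF (SD, n = 3). Bmp3, a BMP family member that opposes other BMPs, had 27.8, 29.6 and 27.4 CPM in iGABA libraries, 0.128, 0.106 and 0.0847 CPM in GAD67 libraries and 25.5, 26.4 and 30.6 CPM in MEF libraries. Its iGABA level overlapped with MEF (log2 fold change 0.04, 95% interval -0.14 to 0.22, adjusted p = 0.674) and lay 256-fold above GAD67 (log2 fold change 8.00 ± 0.17 SE, adjusted p = 3.07e-14). Gdf15, a distant stress-induced member, was at 2.45 ± 0.543 CPM in iGABA and 41.4 ± 1.43 in MEF, with 1 count over the GAD67 libraries, so the ratio of iGABA to GAD67 was 270.2 (95% counting interval 48.1 to 10711). Gdf9, a ligand of the ovary, was low in all groups, at 0.249 ± 0.146 CPM in iGABA, 2.34 ± 0.5398 in GAD67 and 0.754 ± 0.258 in MEF.

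Further receptors and intracellular regulators were split. Of 6 measured receptors and co-receptors, 3 fell in iGABA (Acvrl1, Eng and Rgmb), 1 rose (Rgma) and 2 did not pass (Acvr1c and Amhr2), and in GAD67 4 were higher than in MEF and 2 lower. Acvr1c, a type I receptor for activin and Nodal, averaged 0.115 ± 0.0929 CPM in iGABA, 1.596 ± 0.508 in GAD67 and 0.0875 ± 0.01302 in MEF (SD, n = 3). Rgmb, a BMP co-receptor of the nervous system, was at 24.02 ± 0.869 CPM in iGABA, 151 ± 17.02 in GAD67 and 33.6 ± 1.38 in MEF. Of 19 measured intracellular regulators, 10 fell in iGABA, 7 rose and 2 did not pass (Zfyve16 and Strap). Nedd4l, a ubiquitin ligase that acts on Smads, was at 75.5 ± 1.68 CPM in iGABA, 269 ± 24.9 in GAD67 and 43.2 ± 0.997 in MEF, with a rise in iGABA against MEF (log2 fold change 0.80 ± 0.07 SE, adjusted p = 5.85e-08). Genes named here only in brackets for a small count were chosen after their values were seen.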

How the data were processed

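Total RNA of 9 mouse samples was sequenced as strand-marked libraries (dUTP method), per the labels' protocols. The deposited table holds whole-number read counts per gene, not normalised, with the gene length that is counted. The processing notes of the submitters list BWA 0.7.2, featureCounts, DESeq 1.10.1 and the build mm10. The sources used here do not give what each tool did, the annotation release or the strand setting. GENCODE vM21 gave symbols for 35449 of the 37224 genes, and promoter sequences came from RefSeq tables (GRCm38.p6). All 41 pathway genes and 102 of 103 further listed genes were matched. The pathway genes and lists were chosen with earlier results of these data known. No replicate pair agreed within counting noise (chi-square per gene at least 2.41).

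In R 4.3.3, genes were filtered with edgeR 4.0.16 (filterByExpr, minimum count 10, minimum total 15), scaled by TMM and tested with the quasi-likelihood test (robust) in 1 fit of all 9 libraries, with adjusted p under 0.05 over 18085 genes. The fit was tested on simulated data in which few genes changed. That test does not cover the scaling between groups that differ in most genes. Shares of per-length levels were compared by exact permutation tests in scipy 1.17.1. Alternatives were other size factors, DESeq2 1.42.0, limma 3.58.1 (voom), other filters, fits of 2 groups and leaving out each library. Named were, per role group, the genes with the largest difference or opposite directions, and of the further lists the 4 largest rises and 4 largest falls of at least 2-fold and 1 CPM without overlap. The values of 1 gene so chosen are not reported here. A 0 allows up to 3 counts per library (0.0717 to 0.110 CPM). Floors and ratios of low counts cover counting error only, as PCR copies are not independent molecules.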

Additional observations from a re-analysis of the deposited data

How the results depend on the processing

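Leaving out each library in turn gave 39 to 40 calls in iGABA against MEF (5 to 6 higher, 34 lower), 36 in GAD67 against MEF (5 higher, 31 lower) and 33 to 35 in iGABA against GAD67 (17 to 18 higher, 16 to 17 lower). For the further listed genes those fits gave 80 to 82 calls in iGABA against MEF, 81 to 84 in GAD67 against MEF and 75 to 78 in iGABA against GAD67. With library size alone 10 pathway genes were higher in GAD67 than in MEF, in place of 5. Asking for at least 2-fold left 9 of the 16 genes lower in iGABA than in GAD67, and of the further genes 10 of 17 higher in iGABA than in MEF and 18 of 28 lower in iGABA than in GAD67, by the construction of that rule. Over single pathway genes, 1946 of the alternative fits kept the side of the threshold, and the direction wherever a difference was called. Of the others 10 lost a call, 6 gained one and 5 turned with a call in the main or the alternative fit. Changes of direction without a call in either fit were not counted as turned. Chrd in iGABA against MEF, for example, ran from a log2 fold change of -0.22 to 0.26. The 5 that turned did so with library size alone, which gave log2 fold changes of 0.17 for Inhbb and 0.085 for Smad2 in iGABA against MEF, and of 0.15 for Tgfbr1, 0.16 for Acvr1 and 0.20 for Smad4 in GAD67 against MEF. The Tgfb2 share differed between iGABA and MEF by 1.67 percentage points with CPM not divided by length, by 0.0198 with 0.1 CPM added, and by -0.462 to 0.311 when a library was left out, and the cause was not tested. No other share difference turned. No paired analysis was possible because the groups share no replicate numbers. Depth limits Bmp2, Bmp5 and Bambi in iGABA, each with at most 11 counts per library. In GAD67 it limits Ltbp2, Fstl3, Bmp4, Bmp5 and Bmp6, each with at most 13 counts per library.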
